A study of Mus musculus with 6 samples.

Results

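The genes described here are 7 mouse genes of the oviduct lining and of ciliated cells, measured in the uteri of mice with activated β-catenin and of control mice: Ovgp1, Foxj1, Rsph1, Tekt1, Tppp3, Dnali1 and Dynlrb2. They were taken as every probe set whose platform annotation names exactly 1 of these symbols, which gave 8 of 45037 probe sets and 7 of 18193 genes, with 2 probe sets for Dnali1 and 1 for each other gene. The genes were chosen with results of this mutant and control comparison known, so their differences between the groups are described without a test.

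The oviduct is lined by secretory cells, which release the oviduct glycoprotein encoded by Ovgp1, and by ciliated cells, whose beating cilia move the egg. A motile cilium is built on doublet microtubules that carry dynein arms, radial spokes and a central pair. Foxj1 is the transcription factor that switches on the genes of motile cilia, and RFX factors act on many of the same genes. The uterine horn opens into the oviduct and has few ciliated cells in the mouse. The Cre of this model is made where Pgr is expressed, which includes the oviduct.

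The mutant group held 3 arrays of uteri from Pgr cre/+ Ctnnb1 f(ex3)/+ mice, where the Pgr locus drives a Cre that cuts out exon 3 of Ctnnb1, which leaves a stabilized β-catenin. The control group held 3 arrays of uteri that the labels call wild type and the methods describe as Pgr cre/+ and Ctnnb1 f(ex3)/+. All mice were female, intact and 4 weeks of age by the labels, with no treatment named. By the methods the RNA of uteri of 3 mice was pooled for each genotype. Whether an array stands for 1 animal is thus not settled, and the p-values cover the spread from array to array, which may be technical.

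RNA was read on Affymetrix arrays, and the deposited values were intensities on a linear scale between 1.99 and 10887, with array medians of 7.23 to 7.42. Levels are given here as log2 intensities. An intensity of 16, or 4 on the log2 scale, was used as a mark below which changes may be understated, and 62.3 to 62.6% of probe sets lay below it on each array. All 16 measured markers of uterine identity and muscle lay at 16 or above on all 6 arrays. Across the array, 12.0% of genes were called by limma at an adjusted p under 0.05, 5.61% higher and 6.36% lower in the mutant. The number of arrays limits the precision.

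Ovgp1, which encodes the secreted glycoprotein that coats the egg in the oviduct, was high on a single array. Its intensity was 10.8, 19.9 and 258 on mutant replicates 1 to 3, against 5.63, 24.3 and 8.56 on control replicates 1 to 3. On the log2 scale this was 3.44, 4.32 and 8.01 in the mutant, against 2.49, 4.60 and 3.10 in the control. The groups overlapped, as control replicate 2 lay above mutant replicates 1 and 2. Mutant replicate 3 stood 3.41 above the next highest array on the log2 scale, a 10.6-fold gap, and 94.1% of all probe sets on that array lay at or below Ovgp1. The group means were 5.25 ± 2.43 in the mutant and 3.40 ± 1.09 in the control (SD, n = 3 arrays each), a log2 difference of 1.86 with a standard error of 1.12 from limma. Without mutant replicate 3 the difference was 0.48, and without mutant replicate 1 it was 2.77. The name of this probe set marks it as one whose probes may match more than 1 transcript.

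**Figure D1:**
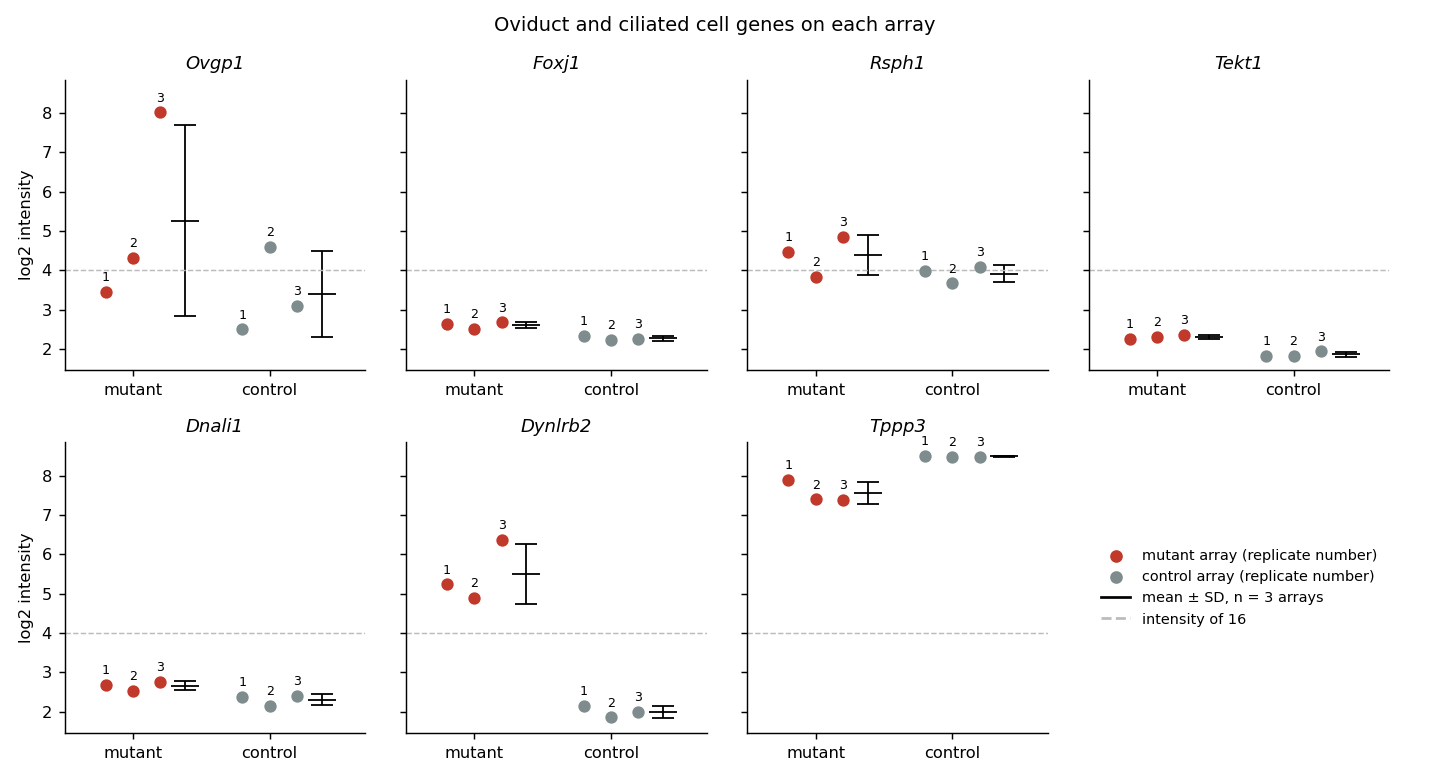
Log2 intensity (y axis) of the 7 genes on the 3 mutant (red) and 3 control (grey) arrays, numbered by replicate, with the mean and SD of each group as black bars and an intensity of 16 as a dashed line. Ovgp1 was at 8.01 on mutant replicate 3 and between 2.49 and 4.60 on the other arrays, and Dynlrb2 was at 4.89 to 6.36 on the mutant and 1.85 to 2.14 on the control arrays.

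Among all 18193 genes, Ovgp1 stood out furthest on mutant replicate 3. Only 3 genes on that array lay more than 2 above each of the other 5 arrays on the log2 scale, namely Ovgp1, Zbtb16 and Ctse. Zbtb16, a zinc finger transcription factor, had log2 intensities of 3.57, 3.77 and 6.29 on mutant replicates 1 to 3, against 3.83, 3.83 and 3.85 on control replicates 1 to 3. Ctse, the protease cathepsin E, had 3.17, 3.67 and 6.34 on the mutant arrays, against 4.11, 3.21 and 3.54 on the control arrays. Both genes were thus within the range of the controls, or just below it, on mutant replicates 1 and 2. By the same measure 2 genes stood out on mutant replicate 2 and none on mutant replicate 1 or any control array. In the other direction, 26 genes on control replicate 2 lay more than 2 below each other array. There were 4 such genes on control replicate 3, 1 on mutant replicate 2, and none on mutant replicates 1 and 3 or control replicate 1.

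**Figure D2:**
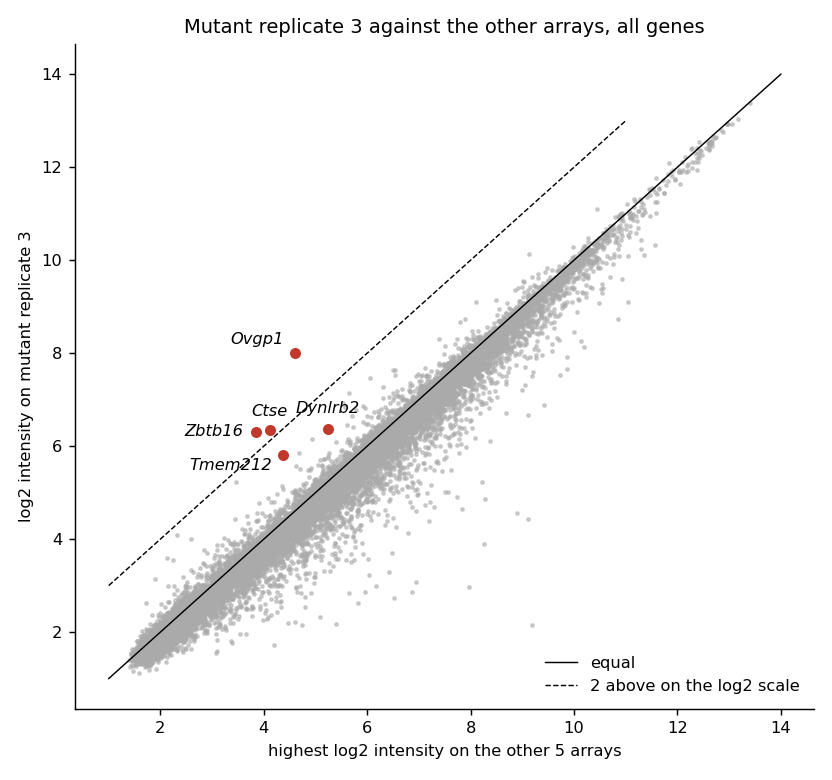
Each point is 1 of 18193 genes, with its highest log2 intensity on the other 5 arrays on the x axis and its log2 intensity on mutant replicate 3 on the y axis; the solid line marks equal values and the dashed line 2 above. Ovgp1, Zbtb16 and Ctse (red) lie above the dashed line, and Dynlrb2 and Tmem212 (red) lie below it.

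The 5 genes whose values over the 6 arrays were most like those of Ovgp1 were Zbtb16, Diras2, Fkbp5, Lrrn1 and Ctse. Likeness was the root mean square difference of log2 values centred on each gene, over 10250 genes with a mean intensity of at least 16. It was 1.01 to 1.11 for these 5 genes, so none followed Ovgp1 closely. Fkbp5, a co-chaperone of steroid receptors, had 4.48, 5.54 and 6.93 on mutant replicates 1 to 3, against 3.82, 3.55 and 4.33 on control replicates 1 to 3. Lrrn1, a leucine-rich repeat neuronal protein, had 5.95, 6.54 and 7.64 in the mutant, against 4.63, 4.80 and 4.29 in the control. Diras2, a small GTPase, had 5.64, 5.63 and 7.14 in the mutant, against 4.47, 5.19 and 3.52 in the control. All 3 were highest on mutant replicate 3, and as they were picked for their values on these arrays no test is given for them. The relatives of Ovgp1 in the chitinase family, Chil1 and Chia1, lay below 16 on all arrays and did not pass the test (log2 differences of -0.19 and 0.17, adjusted p = 0.168 and 0.202 from limma).

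Foxj1, the regulator of motile cilia, was dim on every array. Its log2 intensity was 2.63, 2.51 and 2.67 on mutant replicates 1 to 3, against 2.34, 2.22 and 2.25 on control replicates 1 to 3. The lowest mutant array was above the highest control array, and the groups differed by a mean of 0.34 (standard error 0.08). On the 6 arrays 34.3 to 46.1% of all probe sets lay at or below Foxj1, so this difference was one between values near the middle of the array, where most probe sets lie below 16. The genes most like Foxj1 by the measure above were Mir22hg, Atox1, Bgn (the matrix proteoglycan biglycan), Fibp and Cetn4, at 0.03 to 0.05. They lay at 4.58 to 10.2 on the log2 scale, and no test is given for them either. Genes with a mean intensity under 16 were not searched. The genes found thus had to be brighter than Foxj1, and most motile cilium genes could not appear among them. The Foxj relatives Foxj2 and Foxj3 were bright and did not pass the test (log2 differences of -0.06 and -0.12, adjusted p = 0.721 and 0.442 from limma).

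The axonemal members were dim as well. Tekt1, a tektin that runs along the inside of doublet microtubules, had log2 intensities of 2.24, 2.31 and 2.35 on mutant replicates 1 to 3, against 1.82, 1.83 and 1.94 on control replicates 1 to 3, a difference of 0.44 (standard error 0.08). Dnali1, a light intermediate chain of the inner dynein arm, had 2.69, 2.53 and 2.76 in the mutant, against 2.38, 2.13 and 2.40 in the control, a difference of 0.36 (standard error 0.11). Its dimmer probe set had 2.07, 1.93 and 2.16 in the mutant, against 1.82, 1.83 and 1.64 in the control. For Tekt1 and both Dnali1 probe sets the lowest mutant array was above the highest control array, and all values lay below 16. With a floor of 16 on the intensity the differences of Foxj1, Tekt1 and Dnali1 were all 0.

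Rsph1, a protein of the radial spoke head, lay near 16. Its log2 intensity was 4.46, 3.83 and 4.85 on mutant replicates 1 to 3, against 3.99, 3.66 and 4.09 on control replicates 1 to 3. The groups overlapped through mutant replicate 2, and the difference of 0.47 (standard error 0.24) was 0.23 without mutant replicate 3 and 0.74 without mutant replicate 2.

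Dynlrb2 had the largest difference of the 7 genes. It encodes a roadblock-type light chain of dynein, which in cilia serves the motor that carries cargo back from the tip. Its intensity was 37.7, 29.6 and 82.3 on mutant replicates 1 to 3, against 4.41, 3.61 and 3.96 on control replicates 1 to 3. On the log2 scale this was 5.23, 4.89 and 6.36 in the mutant, against 2.14, 1.85 and 1.99 in the control. All 3 mutant arrays lay far above all 3 control arrays, and mutant replicate 3 was again the highest, by 1.13 on the log2 scale. The means were 5.50 ± 0.77 in the mutant and 1.99 ± 0.14 in the control (SD, n = 3 arrays each), a log2 difference of 3.50 (standard error 0.34), and leaving out any 1 array gave 3.07 to 3.81. The size of this difference rests on dim control values, as only 19.4 to 31.1% of all probe sets on the control arrays lay at or below Dynlrb2, and with a floor of 16 on the intensity it was 1.5. Its widely expressed relative Dynlrb1 had a log2 difference of 0.00 (standard error 0.07, adjusted p = 0.994 from limma), at 9.15 to 9.21 on all 6 arrays.

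Tppp3, which binds and bundles microtubules and is also made by cells without motile cilia, went the other way. Its log2 intensity was 7.89, 7.39 and 7.38 on mutant replicates 1 to 3, against 8.51, 8.48 and 8.47 on control replicates 1 to 3. The highest mutant array was below the lowest control array, mutant replicate 1 came nearest to the controls, and the difference was -0.93 (standard error 0.14). Its relative Tppp also fell, with a log2 difference of -1.07 (standard error 0.23, adjusted p = 0.0231 from limma), at 4.35, 4.29 and 3.49 in the mutant, against 4.92, 5.16 and 5.27 in the control. The call of Tppp was lost on leaving out 3 of the 6 arrays in turn (adjusted p up to 0.0745 from limma).

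In all, the mutant arrays lay wholly above the controls for 4 of the 7 genes (Foxj1, Tekt1, Dnali1 and Dynlrb2), below for 1 (Tppp3), and the groups overlapped for Ovgp1 and Rsph1. Across the array the groups did not overlap for 14.9% of genes with the mutant above and for 17.4% with the mutant below, and as the genes were chosen on this comparison nothing is read from their count. Mutant replicate 3 was the highest mutant array for 6 of the 7 genes, all but Tppp3, beside 31.6% of all genes and 34.6% of genes below 16 on all arrays. For Foxj1, Tekt1 and Dnali1 it stood only 0.04 to 0.07 above the next array on the log2 scale, and nothing is read from this count either. Only Tppp3 lay at 16 or above on all arrays, and Foxj1, Tekt1 and Dnali1 lay below 16 on all of them. In whole tissue a larger number of cells and more RNA per cell cannot be told apart.

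A wider list of 124 motile cilium genes, without the 7 genes, was set up by role, and 104 had a probe set with 1 gene symbol. Of these, limma called 13 higher and 3 lower in the mutant and left 88 uncalled ( adjusted p under 0.05 over all genes). This was 12.5% higher and 2.88% lower, beside 5.61% and 6.36% of all genes. The median log2 difference was 0.07 in the list and -0.01 over all genes. Most of the list was dim, with 84 of 104 genes below 16 on all arrays. Of these 84 genes 10 were higher and none was lower (23 at an unadjusted p under 0.05 from limma), beside 1.97% higher and 1.38% lower of all 7401 genes that dim. Of the 20 genes at 16 or above on any array 3 were higher and 3 lower (15% each), beside 8.11% and 9.78% of all 10792 such genes. The summed intensity of the 104 genes was 1409, 1334 and 1620 on mutant replicates 1 to 3, against 1578, 1449 and 1463 on control replicates 1 to 3. No gene of the list was called with a floor of 16 or by the methods' t-test after adjustment, against 283 higher and 243 lower over all genes with that floor. Leaving out control replicate 1 gave 4 higher and 1 lower of the 104 genes, beside 480 higher and 372 lower of all 18193. Leaving out control replicate 2 gave 9 higher and 1 lower, beside 722 and 682 of all genes.

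Among 8 regulators of multiciliated cells, 2 were higher and 1 was lower (25% and 12.5%, beside 5.61% and 6.36% of all genes). Deup1, a protein of the deuterosome on which the centrioles of ciliated cells are made, had log2 intensities of 3.03, 2.92 and 3.22 on mutant replicates 1 to 3, against 2.45, 2.57 and 2.30 on control replicates 1 to 3, and rose by 0.61 (standard error 0.11, adjusted p = 0.0139 from limma). Ccno, also needed to make these centrioles, rose by 0.43 (standard error 0.08, adjusted p = 0.0165 from limma). Without control replicate 1 both calls were lost (adjusted p = 0.0584 for Deup1 and 0.0766 for Ccno), and without mutant replicate 3 that of Ccno (0.0530). Myb, a transcription factor of early ciliated cells and also of blood progenitors, had a log2 difference of -1.19 (standard error 0.20, adjusted p = 0.00947 from limma). Its values were 5.72, 5.78 and 6.21 in the mutant, against 7.26, 6.70 and 7.33 in the control, so the lower member was also the bright one.

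Of 19 genes of radial spokes and the links between doublets, 3 were higher, 16 were not called and none was called lower (limma, 8 at an unadjusted p under 0.05). The share of higher genes was 15.8%, beside 5.61% of all genes. Nme5, a nucleoside diphosphate kinase relative of the radial spoke, had 5.18, 5.27 and 5.84 on mutant replicates 1 to 3, against 4.62, 4.20 and 4.22 on control replicates 1 to 3, and rose by 1.09 (standard error 0.19, adjusted p = 0.0128 from limma). All of its values lay above 16. Dnajb13, a chaperone-like protein of the spoke, rose by 0.48 and Ccdc40, which helps to set the spacing along the doublets and is named after its values were seen, by 0.32 (adjusted p = 0.0237 and 0.0369 from limma). The call of Ccdc40 was lost on leaving out any 1 array (adjusted p up to 0.0983), and that of Dnajb13 without mutant replicate 2, mutant replicate 3, control replicate 1 or control replicate 2 (adjusted p up to 0.0964). Nme5 was called without each of the 6 arrays.

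Of 18 tektins and other proteins of the doublet microtubules, 4 were higher and 1 was lower (22.2% and 5.56%, beside 5.61% and 6.36% of all genes). Fam183b had 2.84, 2.68 and 3.76 on mutant replicates 1 to 3, against 1.43, 1.54 and 1.22 on control replicates 1 to 3, and rose by 1.69 (standard error 0.26, adjusted p = 0.0079 from limma). The gene 1700007K13Rik had 3.14, 2.53 and 3.56 in the mutant, against 2.13, 2.03 and 1.96 in the control, and rose by 1.03 (standard error 0.23, adjusted p = 0.0286 from limma). Both were highest on mutant replicate 3 and lay above all controls on mutant replicates 1 and 2 as well. Fam183b was called without each of the 6 arrays, and the call of 1700007K13Rik was lost without mutant replicate 1 or any control array (adjusted p = 0.0683 to 0.0847). Cfap52 and Tekt2, a relative of Tekt1, are the other 2 and are named after their values were seen, with rises of 0.80 and 0.69 (adjusted p = 0.00675 and 0.0111 from limma). Enkur, which binds microtubules and was first described in sperm, had a log2 difference of -1.02 (standard error 0.22, adjusted p = 0.0265 from limma), a call lost without mutant replicate 3, control replicate 1 or control replicate 2 (adjusted p = 0.0638, 0.101 and 0.0762).

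Of 20 other genes of ciliated epithelial cells, 4 were higher and 1 was lower (20% and 5%, beside 5.61% and 6.36% of all genes). Of these 20 genes 15 lay below 16 on all arrays. Tmem212, a membrane protein, had 3.96, 4.38 and 5.81 on mutant replicates 1 to 3, against 2.55, 2.45 and 2.56 on control replicates 1 to 3, and rose by 2.19 (standard error 0.41, adjusted p = 0.0155 from limma). Pifo, the ciliary protein pitchfork, rose by 1.06 (standard error 0.19, adjusted p = 0.0125 from limma), with 3.24, 3.31 and 3.98 in the mutant, against 2.38, 2.47 and 2.52 in the control. Capsl, a calcium-binding protein, had a log2 difference of -1.0 (standard error 0.23, adjusted p = 0.0295 from limma). Without mutant replicate 3 Tmem212 and Pifo were still called, at 1.65 and 0.82 (adjusted p = 0.00185 and 0.00516 from limma), and without control replicate 1 both calls were lost (adjusted p = 0.0597 and 0.0570). The call of Capsl was lost on leaving out control replicate 1, 2 or 3 (adjusted p = 0.110, 0.0646 and 0.0654).

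None of 16 dynein arm subunits, 12 dynein assembly and docking genes or 11 central pair genes was called by limma (1, 3 and 2 genes at an unadjusted p under 0.05). None was called by the methods' t-test after adjustment either, which called 144 of all 18193 genes. The gene with the smallest p in each was Wdr63 (log2 difference 0.40, adjusted p = 0.0702), Lrrc6 (0.28, adjusted p = 0.113) and Cfap69 (0.45, adjusted p = 0.0566), all from limma. In these 3 groups 13, 11 and 10 genes lay below 16 on all arrays, and the median log2 differences were 0.02, 0.04 and 0.07. Limma called 12.0% of all genes, but only 3.35% of all genes below 16 on all arrays. The absence of calls is close to the latter share, and nothing is read from it.

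**Figure D3:**
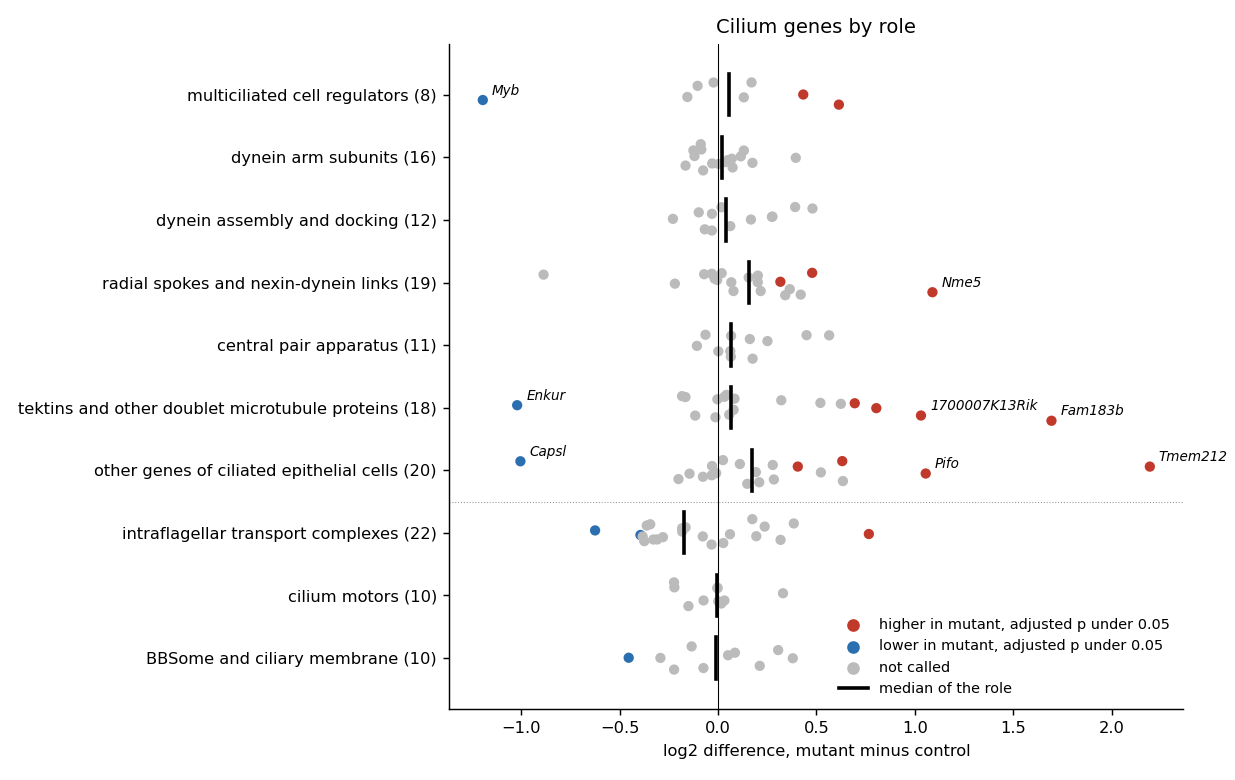
Rows (y axis) are roles, with their count of measured genes in brackets, and each point is 1 gene at its log2 difference of mutant minus control (x axis). Genes called higher by limma are red, those called lower are blue and the rest grey, black bars are medians, with ciliary transport under the dotted line; the medians lie between -0.17 and 0.17, and Tmem212 (2.19) and Fam183b (1.69) lie furthest to the right.

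The motile cilium genes also differed from array to array within the mutant group. Mutant replicate 3 was the highest mutant array for 66 of 104 genes (63.5%), beside 31.6% of all genes and 34.6% of genes below 16 on all arrays. Of the 13 higher genes, 11 were highest on mutant replicate 3, beside 386 of all 1021 higher genes and 66 of the 146 higher genes below 16 on all arrays. Relative to the mean of the controls, 12, 6 and 26 of the 104 genes lay more than 0.5 higher on the log2 scale on mutant replicates 1 to 3, or 11.5, 5.77 and 25%. For all genes these shares were 4.86, 7.14 and 6.48%. Without mutant replicate 3, 9 motile cilium genes were higher and 3 were lower, beside 731 and 760 of all genes.

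**Figure D4:**
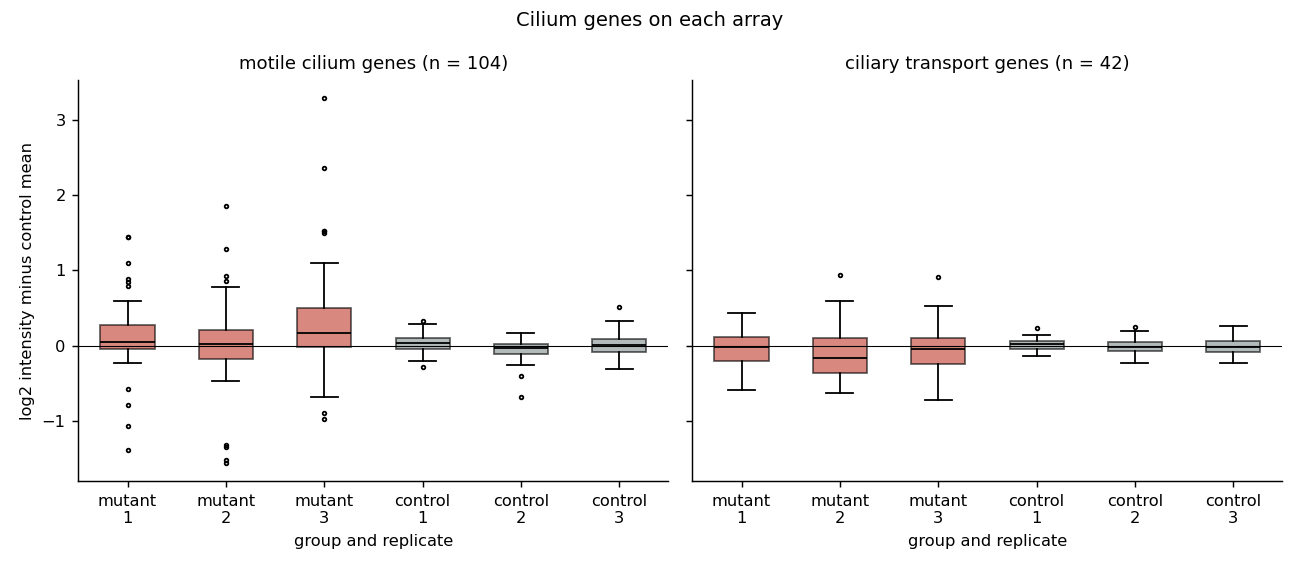
Boxes give the spread over genes (median, quartiles, whiskers to 1.5 times the quartile range, dots beyond) of the log2 intensity minus the control mean (y axis) on each array (x axis), with mutant arrays in red and control arrays in grey; control boxes are narrow in part because each control array enters its own mean. The median of the 104 motile cilium genes was 0.06, 0.02 and 0.16 on mutant replicates 1 to 3, and that of the 42 ciliary transport genes -0.01, -0.16 and -0.04.

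A second list held genes that serve primary and motile cilia alike. Of 42 measured ciliary transport genes, limma called 1 higher and 3 lower and left 38 uncalled, with a median log2 difference of -0.07. This was 2.38% higher and 7.14% lower, beside 5.61% and 6.36% of all genes. Traf3ip1, a subunit of the intraflagellar transport complex that moves toward the tip, rose by 0.77 (standard error 0.14, adjusted p = 0.0157 from limma). Ttc21b, of the complex that returns from the tip, had a log2 difference of -0.62 (standard error 0.10, adjusted p = 0.00821 from limma). Ift81, a subunit that binds tubulin, and Ttc8, of the BBSome coat, had -0.39 and -0.45 (adjusted p = 0.0442 and 0.0461 from limma). The call of Ttc8 held only without mutant replicate 1 (adjusted p up to 0.144 without another array), and that of Ift81 only without mutant replicate 1 or control replicate 3 (up to 0.157). The call of Traf3ip1 was lost without mutant replicate 2 or control replicate 3 (adjusted p = 0.0611 and 0.0533). Of 10 cilium motors none was called (3 at an unadjusted p under 0.05), and Kifap3, the adaptor of kinesin-2, had the smallest p (-0.22, adjusted p = 0.141 from limma). These genes were brighter, with 2 of 42 below 16 on all arrays, and mutant replicate 3 was the highest mutant array for 17 of them (40.5%). On leaving out 1 array the counts ran between 0 and 4 higher and between 1 and 4 lower, with 4 higher without mutant replicate 1, none higher without mutant replicate 2 or control replicate 3, and 1 lower without mutant replicate 2, mutant replicate 3 or control replicate 1.

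Markers of tissues next to the uterus were read on the same arrays, and their part in the values above was not tested. Their counts stand beside 5.61% of all genes called higher and 6.36% called lower. Of 6 measured oviduct epithelial genes, which the uterus also expresses in large part, none was called higher and 1 was lower (limma, 4 at an unadjusted p under 0.05, and 1 called by the methods' t-test). Their summed intensity was 1318, 1300 and 1534 on mutant replicates 1 to 3, against 1804, 1892 and 1635 on control replicates 1 to 3. Emx2, a homeobox factor of the reproductive tract, had a log2 difference of -0.62 (standard error 0.08, adjusted p = 0.00376 from limma). Pax8, a factor of oviduct secretory cells, is named after its values were seen. It had 4.94, 4.83 and 5.35 on mutant replicates 1 to 3, against 5.43, 5.61 and 5.29 on control replicates 1 to 3. Mutant replicate 3 was its highest mutant array and lay within the range of the controls, and nothing is read from this 1 gene.

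None of 18 ovary markers was called by limma (0 at an unadjusted p under 0.05). Their summed intensity was 108, 107 and 112 on mutant replicates 1 to 3, against 111, 109 and 124 on control replicates 1 to 3. Of the 18 markers, 16 lay below an intensity of 16 on all arrays. Only 3.35% of all genes that dim were called, so nothing is read from the absence of calls. The egg coat genes Zp1, Zp2 and Zp3 were all below 16 on all arrays, and Cyp11a1, a steroidogenic enzyme, had the smallest p (-0.19, adjusted p = 0.280 from limma). Of 5 mesothelium markers, 3 of which lay below 16 on all arrays, none was called by limma (1 at an unadjusted p under 0.05). Bnc1 was at -0.54 (adjusted p = 0.159 from limma). The sums of the 5 were 114, 102 and 99.7 on mutant replicates 1 to 3, against 126, 128 and 99.5 on control replicates 1 to 3. Of 11 markers of the squamous epithelium of cervix and vagina, 3 were higher (27.3%, beside 5.61% of all genes). The sum of the 11 was 161, 212 and 245 on mutant replicates 1 to 3, against 106 to 111 in the control. The basal cell genes Krt15 and Trp63 rose by 3.49 and 1.79 (standard errors 0.27 and 0.20), and the other 8 markers were not called.

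Of 6 fat markers 3 were higher (50%, beside 5.61% of all genes). The sums of the 6 were 1302, 1872 and 1046 on mutant replicates 1 to 3, against 441, 577 and 127 on control replicates 1 to 3. Mutant replicate 3 had the lowest fat sum of the mutant arrays. Retn and Cidec rose by 2.35 and 1.82 (adjusted p = 0.0407 and 0.00900 from limma), and the call of Retn was lost without mutant replicate 3 (adjusted p = 0.0664). Among the 16 uterine markers Foxa2, of the glands, rose by 1.54, and Pgr and Krt18 had log2 differences of -0.97 and -0.80 (adjusted p = 0.00193, 0.00270 and 0.00584 from limma). The mutants carry the Cre at the Pgr locus, and how many controls do is not stated. The part of that allele in the Pgr difference was not tested.

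The promoters of the cilium genes were set beside the values, since RFX factors bind near the start of many such genes. In RefSeq windows of GRCm38.p6, from 250 bases before to 50 after each start, the RFX core GTTGCC was searched on both strands with the forkhead site TAAACA and the TCF/LEF site CTTTGAT. A window was found for 4 of the 7 genes, Ovgp1, Tekt1, Dnali1 and Dynlrb2. The 4 promoters shown are those of the member with the largest difference, of the highest and second highest rise in the wider list, and of the tektin, with matches to any of the 3 motifs in capitals.
Dynlrb2, chr8:116504765-116505064, plus strand: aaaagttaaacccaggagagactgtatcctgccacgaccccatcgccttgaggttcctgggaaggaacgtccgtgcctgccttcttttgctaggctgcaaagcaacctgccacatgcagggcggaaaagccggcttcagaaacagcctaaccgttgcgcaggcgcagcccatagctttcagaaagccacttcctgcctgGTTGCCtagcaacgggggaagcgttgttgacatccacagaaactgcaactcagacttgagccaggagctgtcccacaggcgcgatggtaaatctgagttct
Tmem212, chr3:27896319-27896618, minus strand: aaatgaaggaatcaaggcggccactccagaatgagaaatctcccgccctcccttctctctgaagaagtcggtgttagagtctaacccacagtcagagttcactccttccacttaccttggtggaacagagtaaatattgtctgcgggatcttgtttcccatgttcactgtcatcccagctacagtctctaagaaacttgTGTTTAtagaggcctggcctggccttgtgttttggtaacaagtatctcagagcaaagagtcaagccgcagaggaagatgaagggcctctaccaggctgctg
Tekt1, chr11:72361833-72362132, minus strand: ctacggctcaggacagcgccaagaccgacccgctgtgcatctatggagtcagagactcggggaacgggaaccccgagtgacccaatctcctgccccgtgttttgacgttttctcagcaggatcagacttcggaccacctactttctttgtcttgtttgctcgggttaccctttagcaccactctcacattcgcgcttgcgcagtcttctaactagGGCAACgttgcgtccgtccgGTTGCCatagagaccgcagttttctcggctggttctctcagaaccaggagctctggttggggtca
Fam183b, chr11:58801911-58802210, minus strand: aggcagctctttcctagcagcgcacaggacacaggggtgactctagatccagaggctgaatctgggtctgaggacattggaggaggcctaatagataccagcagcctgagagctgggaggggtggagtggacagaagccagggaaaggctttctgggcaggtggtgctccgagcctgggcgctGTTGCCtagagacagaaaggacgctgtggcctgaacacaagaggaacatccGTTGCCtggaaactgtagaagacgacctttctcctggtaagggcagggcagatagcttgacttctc

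The capitals in Tmem212 are the forkhead site as its reverse complement, with the first base at -51 from the start, and its window held no RFX core. In the other 3 windows the capitals are the RFX core or its reverse complement, with the first base at -51 from the start in Dynlrb2, at -35 and -15 in Tekt1 and at -67 and -16 in Fam183b. Tekt1 had another window, at a different start (chr11:72361247-72361546), which is not shown and held none of the 3 motifs. The window of Ovgp1 held none of the 3 motifs, and that of Dnali1 held the TCF/LEF site. The RFX core stood in at least 1 window of 38 of 91 motile cilium genes (41.8%) and 15 of 37 ciliary transport genes (40.5%), beside 14.1% of all 27025 genes with a window and 12.5% of all windows. Of the 12 higher motile cilium genes with a window 5 held it (41.7%), a share close to that of the whole list. The forkhead site stood in 25 of the 91 motile cilium genes (27.5%) and 3 of the 37 transport genes (8.11%), beside 15.1% of all genes and 13.4% of windows. The TCF/LEF site stood in 2 of the 91 motile cilium genes (2.20%) and 1 of the 37 transport genes (2.70%), beside 4.29% of all genes and 3.73% of windows. Of the 12 higher motile cilium genes with a window 4 held the forkhead site (33.3%) and none held the TCF/LEF site. With a site this rare in the whole list, nothing is read from the latter. These matches are letters only and say nothing of binding in the uterus.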

How the data were processed

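The values the authors deposited were linear intensities, 1 for each probe set on each of 3 mutant and 3 control arrays. RMA is named in the submitters' processing notes, and its version, any filter and any detection call are not stated in the paper, labels or file headers. Values were floored at 1 (none was below it) and put on the log2 scale. Gene symbols came from the platform annotation of GEO. Of 45037 probe sets 34945 had 1 symbol, 932 had several and 9160 had none. Each of 18193 genes was read by its brightest probe set. The groups were set against each other by lmFit and eBayes of limma 3.58.1 under R 4.3.3, without covariates, at a threshold of 0.05 on p-values adjusted (Benjamini-Hochberg) across the 18193 genes. The 7 genes, the lists and the alternatives were chosen with earlier results of these data known. Genes were named by rule: all 7 with their relatives, in each role or marker list the 2 called genes that changed most in each direction (the smallest p where none was called), and the 5 most like Ovgp1 and Foxj1. The steps were tested on simulated data. Alternatives were other scalings, probe set choices, low value limits, variance models, thresholds, the methods' t-test, the replicate number as a block and leaving out each array. Protein sequences were not used here. No column of values was left unassigned, and any 2 arrays shared at most 2.11% of their values.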

Additional observations from a re-analysis of the deposited data

How the results depend on the processing

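Every member kept its direction wherever an alternative gave a difference other than 0. Leaving out each array in turn gave log2 differences of 0.48 to 2.77 for Ovgp1, 0.30 to 0.38 for Foxj1, 0.23 to 0.74 for Rsph1, 0.42 to 0.48 for Tekt1, 0.27 to 0.42 for Dnali1, 3.07 to 3.81 for Dynlrb2 and -1.10 to -0.84 for Tppp3. With a floor of 16 Foxj1, Tekt1 and Dnali1 were at 0 and Dynlrb2 at 1.5, and those 3 genes left no value once the lowest 40% of genes were dropped, as they were among them. The counts over all genes, 1021 higher and 1157 lower, were 480 to 971 and 372 to 1139 on leaving out 1 array, 283 and 243 with a floor of 16, and 105 and 39 by the methods' t-test, and 757 were lower at a fold above 1.5 and an unadjusted p under 0.05. The motile cilium counts, 13 higher and 3 lower, were 4 to 13 and 1 to 3 on leaving out 1 array, 0 and 0 with a floor of 16 or by the methods' t-test, and 3 higher without the lowest 40% of genes, a filter that kept 10 of the 20 cilium genes called. At a fold above 1.5 and an unadjusted p under 0.05 the methods' t-test gave 9 higher and 3 lower motile cilium genes of 104, beside 649 higher and 665 lower of 18193. The ciliary transport counts, 1 higher and 3 lower, were 0 to 4 and 1 to 4 on leaving out 1 array, 0 and 0 with a floor of 16 or by the methods' t-test, 3 and 6 with array weights, 2 higher without the lowest 40% of genes, and 1 lower with all probe sets adjusted together or at the fold threshold. Arrays that share a replicate number are not stated to share an animal, and their deviations from the group means had correlations of 0.01, 0.21 and 0.16 for numbers 1 to 3, so the numbers were not taken as pairs. Control replicate 1 correlated better with mutant replicate 3 (0.11) than with its own number. Control replicates 2 and 3 correlated best with their own numbers. Control replicate 2 had -0.21 with mutant replicate 3, and control replicate 3 had -0.15 with mutant replicate 2. With the replicate block 966 genes were higher and 1085 lower, 13 and 3 of the motile cilium genes and 1 and 2 of the ciliary transport genes, and the member differences did not move. Among those 20, Ccdc40, Ift81 and Ttc8 lost their calls under it. Signal is a limit for the 84 of 104 motile cilium genes that lay below an intensity of 16 throughout.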

Other observations

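The 2 genes that stood more than 2 above all other arrays on mutant replicate 2 were Pla2g2a and Ido1, named here after their values were seen. Pla2g2a, a secreted phospholipase, had log2 intensities of 3.62, 9.11 and 4.42 on mutant replicates 1 to 3, against 2.06, 2.06 and 1.98 on control replicates 1 to 3. Ido1, an enzyme of tryptophan breakdown, had 2.71, 5.69 and 3.69 in the mutant, against 2.38, 2.28 and 2.21 in the control. Ovgp1 had a log2 intensity of 4.32 on mutant replicate 2, so the array on which these genes were high was not the one on which Ovgp1 was.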
